A study of Homo sapiens with 9 samples.

Results

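The DEAD and DEAH box RNA helicases were analysed as the genes of the expression table whose symbol is DDX or DHX followed by a number and, for some, a letter. This rule took 53 of the 22587 genes, 37 named DDX and 16 named DHX. It used names and no measured value. RNA-seq had been made from HepG2 cells, an established human liver cancer line that the study describes as hepatocellular carcinoma, in 3 groups of 3 libraries. The groups were cells with Gln added, cells deprived of Gln for 12 h and cells deprived of Gln for 24 h. All groups were grown in high-glucose DMEM with 10% FBS, and serum can carry some amino acids into a deprivation medium. The labels name GlutaMAX, a stable dipeptide source of Gln, as what the Gln-added cultures received, while the treatment description places it in the Gln-free medium, so which group received it is open. According to the methods, the routine medium contained Gln, and the titles call the Gln-added medium normal. No time is given for the Gln-added cultures, and no label says whether the 3 libraries of a group came from separate cultures, so the p-values measure the spread between libraries, which may be technical.

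DEAD and DEAH box proteins are named after the amino acids of a conserved ATP-binding motif and use ATP to unwind or clamp RNA or to strip proteins from it. DEAD box proteins open short duplexes locally, whereas many DEAH box proteins move along a strand and depend on partner proteins with a G-patch domain. Between them they serve transcription, splicing, ribosome assembly, mRNA export, translation, decay and the sensing of viral RNA. Several also unwind G-quadruplexes, 4-stranded structures of G-rich DNA or RNA, and DDX5, a DEAD box protein that unfolds such structures in DNA, was the helicase at the centre of the study.

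The values were FPKM, fragment numbers scaled to transcript length and library depth, so levels can be compared between genes per length. The libraries held 29618770 to 36258399 fragments on genes, as recovered from the steps of the FPKM values. All 8 HepG2 markers checked, among them ALB and AFP, were at 14.7 FPKM or more in every library. A gene was tested if its mean over the 9 libraries was at least 0.5 FPKM, which 11880 genes and 47 helicases passed, 32 named DDX and 15 named DHX. The test was limma on log2(FPKM + 0.1) with Benjamini-Hochberg adjustment over all genes tested, and a gene was called at an adjusted p under 0.05. Log2 fold changes below are on that scale and carry a standard error (SE), and SDs are over the 3 libraries of a group. TRIB3, a stress-induced pseudokinase and the other protein at the centre of the study, went from 64.3 ± 1.48 FPKM in Gln-added cells to 262 ± 13.8 at 12 h and 251 ± 10.2 at 24 h.

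With Gln added, the helicases spanned a wide range of levels and a few of them made up much of the total. Of the 53, 8 had a mean of 50 FPKM or more, 20 lay between 10 and 50, 19 between 1 and 10, and 6 below 0.5. DDX5 was the most abundant at 136 ± 0.385 FPKM (SD, n = 3). It was followed by DDX21 at 111 ± 5.10, DDX1 at 93.2 ± 2.98, DDX17 at 76.6 ± 0.677 and DHX9 at 67.7 ± 2.14 FPKM. These 5 genes summed to 484 FPKM, 38.4% of the family. Next came DHX15 at 60.7 ± 2.29, DDX3X at 57.6 ± 1.14 and DDX18 at 54.7 ± 1.69 FPKM. Each of these 8 stood above the next in every Gln-added library, although the ranges of DDX3X and DDX18 across these libraries overlapped. All 53 together summed to 1260 ± 14.2 FPKM in Gln-added cells, to 1334 ± 11.2 at 12 h and to 1337 ± 18.7 at 24 h. The share of this sum taken by DDX5 was 10.8% in Gln-added cells, 12.8% at 12 h and 13.5% at 24 h.

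The 6 helicases below the filter were DDX4, DDX25, DDX53, DDX60, DDX60L and DHX58. DDX4, the germ cell helicase VASA, DDX25, a helicase of testis, and DDX53, a cancer-testis gene, had 0 to 2 fragments in each library. DDX60 and DDX60L, which are induced by interferon, had 0 to 8 and 0 to 4 fragments. DHX58, the receptor LGP2 of the RIG-I family, was at 0.325 ± 0.0819, 0.256 ± 0.0516 and 0.294 ± 0.0517 FPKM in Gln-added, 12 h and 24 h cells. The filter on low values left these 6 out of the test, and none of them had more than 39 fragments in a library.

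**Figure D1:**
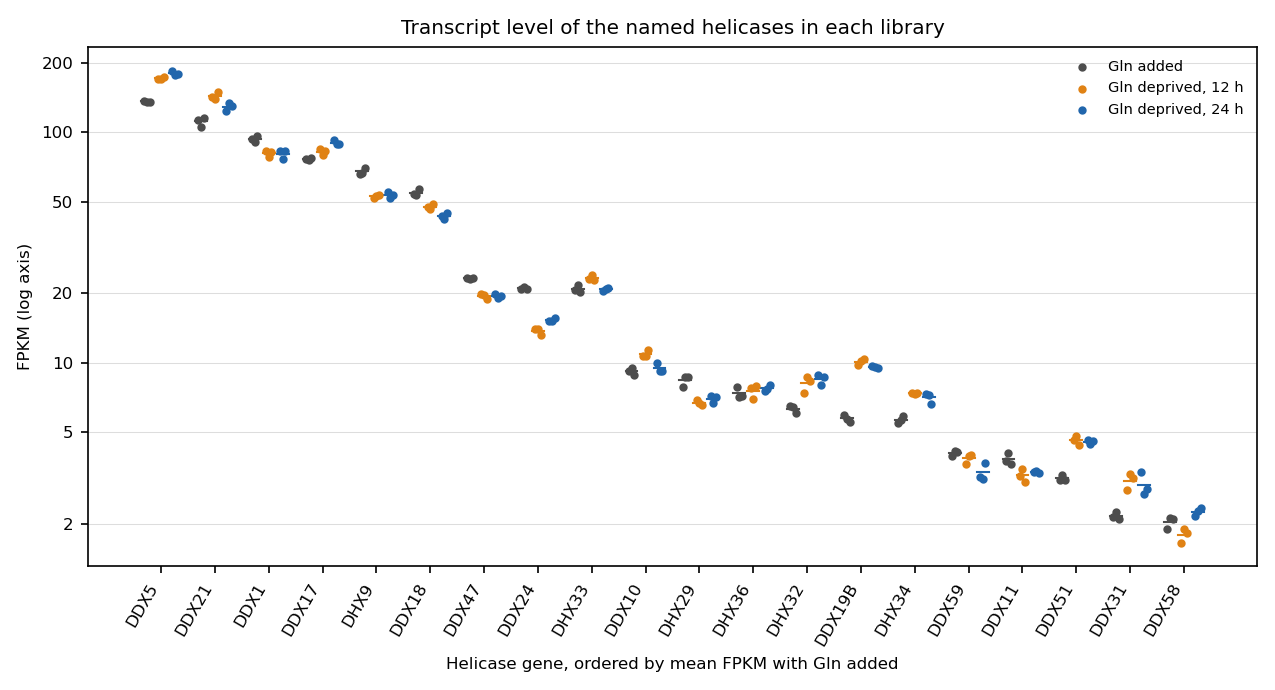
FPKM (log axis) of the 20 helicases named by a fixed rule, in each of the 9 libraries, ordered by their mean with Gln added. Points are libraries, short lines are group means, and colours mark Gln added (grey), 12 h (orange) and 24 h (blue) of Gln deprivation. DDX5 rises from 136 FPKM with Gln added to 180 FPKM at 24 h, while DDX24 drops from 21.0 to 13.7 FPKM at 12 h.

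Gln deprivation was followed by many small changes among the helicases. At 12 h, 36 of the 47 tested were called (76.6%), 23 higher and 13 lower. Of all genes tested, 60.2% were called at 12 h, 29.1% higher and 31% lower, so the share of helicases called lower was close to that of all genes and the share called higher, 48.9%, was above it. At 24 h, 34 were called (72.3%), 21 higher and 13 lower, beside 64.7% of all genes, 33% higher and 31.7% lower. The changes were typically smaller than those of all genes tested, which were not matched to the helicases by level. In absolute size, the median log2 fold change among helicases was 0.17 (12 h) and 0.21 (24 h), against 0.25 and 0.28 over all genes tested. None of the 47 changed by a log2 fold change of 1, and values ran from -0.61 (DDX24) to 0.81 (DDX19B) at 12 h and from -0.45 to 0.74, in the same genes, at 24 h. The signed median was 0.10 at 12 h and 0.075 at 24 h, against -0.019 and 0.013 over all genes. With FPKM rescaled to the same total in each library, the split at 12 h was 25 higher and 8 lower. Of the 36 calls at 12 h, 25 were made under all 19 alternatives tried, and those lost under some were DDX6, DDX11, DDX17, DDX23, DDX39A, DDX3Y, DDX41, DDX42, DDX56, DHX8 and DHX57. Of the 34 at 24 h, 29 were, and those lost under some were DDX11, DDX19A, DDX39A, DDX56 and DHX35. The 2 comparisons share their Gln-added libraries and are not independent of each other. Counts in the lists below are to be read beside these shares of all genes.

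Among genes named DHX, 9 of 15 were called higher and 3 lower at 12 h, and 8 higher and 4 lower at 24 h. That is 80% at each time, beside 60.2% and 64.7% of all genes. Among genes named DDX, 14 of 32 were called higher and 10 lower at 12 h, and 13 higher and 9 lower at 24 h. That is 75% at 12 h and 68.8% at 24 h. These groups follow the names and not the letters of the motif. The helicases not past the threshold at 12 h were DDX20, DDX28, DDX49, DDX50, DDX52, DDX55, DDX58, DDX59, DHX15, DHX35 and DHX36. At 24 h they were DDX10, DDX20, DDX28, DDX41, DDX42, DDX46, DDX50, DDX54, DDX55, DDX58, DHX15, DHX33 and DHX36.

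**Figure D2:**
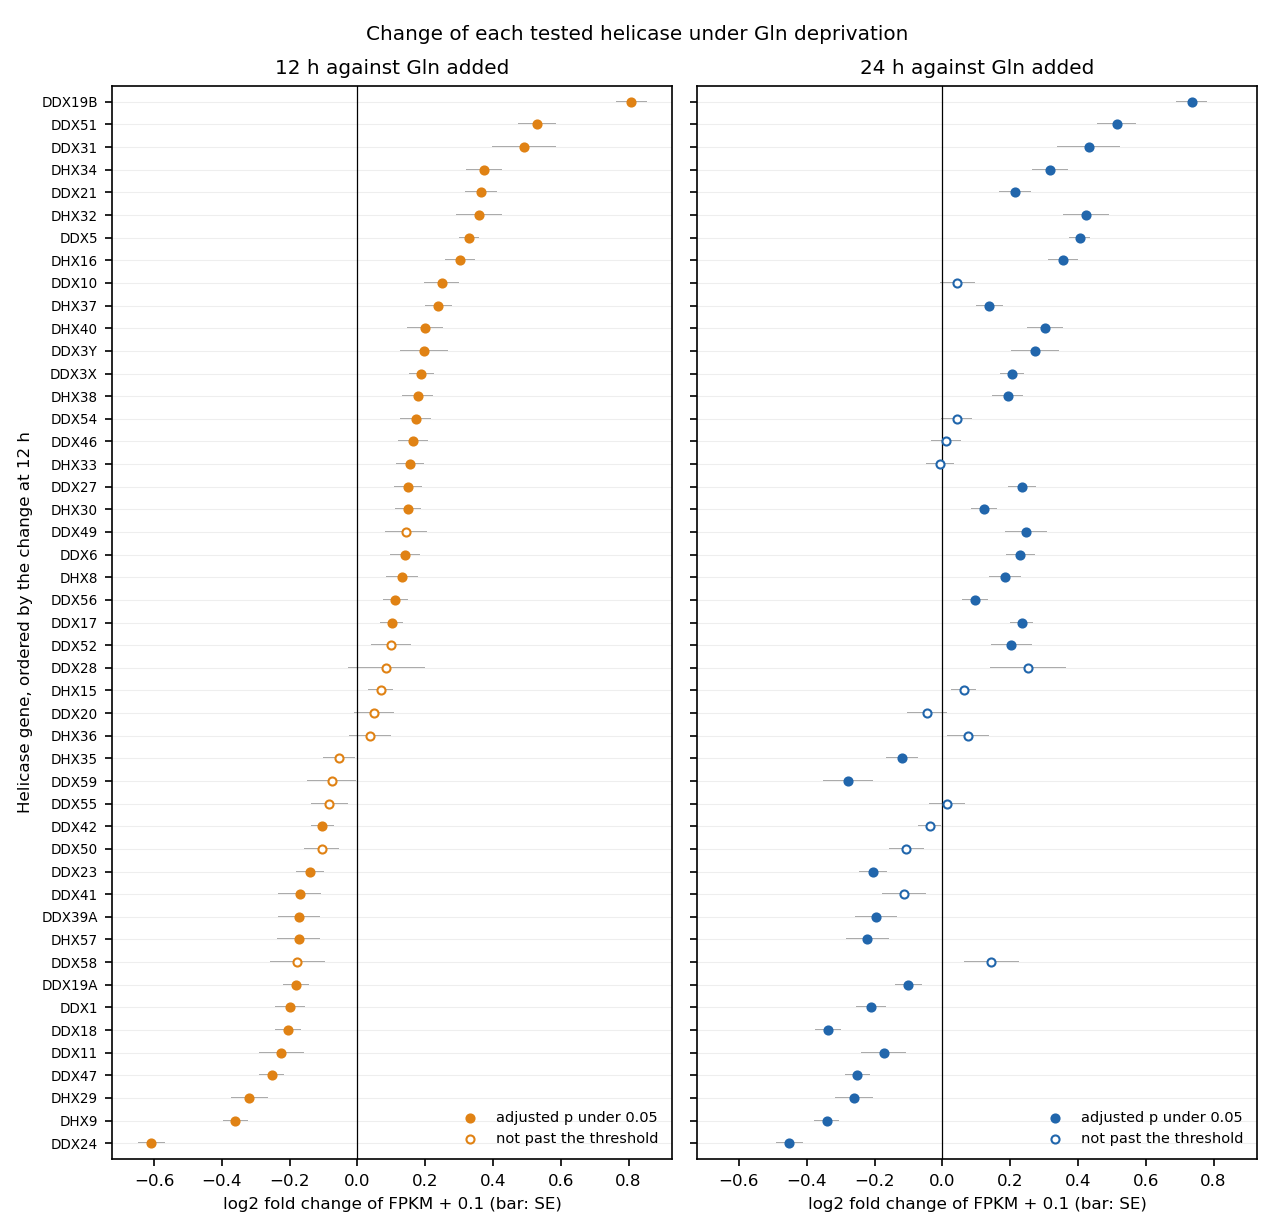
Log2 fold change of FPKM + 0.1 at 12 h (left) and 24 h (right) against Gln added for the 47 tested helicases, ordered by the change at 12 h. Bars are standard errors and filled points have an adjusted p under 0.05. DDX19B lies at the top with 0.81 and 0.74, and DDX24 at the bottom with -0.61 and -0.45.

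DDX5 (chr17:64498254-64508199, minus strand, GRCh38), a coactivator of transcription and splicing factor as well as a G-quadruplex helicase, rose at both times. Its libraries were at 136.3, 135.6 and 135.7 FPKM with Gln added, 169.8, 169.9 and 172.9 FPKM at 12 h, and 184.8, 176.6 and 178.4 FPKM at 24 h. The groups did not overlap, and replicates lay within a few percent of each other on 19487 to 27218 fragments per library. The log2 fold change was 0.33 (SE 0.030, limma adjusted p = 4.88e-06) at 12 h, a ratio of means of 1.26, and 0.40 (adjusted p = 7.3e-07) at 24 h, a ratio of 1.32. The difference between 24 h and 12 h, 0.074, did not pass the threshold (adjusted p = 0.106). In GENCODE v44, 1.78% of its exonic bases are shared with the same-strand microRNA genes MIR3064 and MIR5047 and 2.71% with CEP95 on the opposite strand.

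DDX17 (chr22:38483438-38507660, minus strand), the close paralog with which DDX5 shares many functions, rose less than DDX5 at both times. It was at 76.6, 75.9 and 77.3 FPKM with Gln added, 84.2, 79.3 and 83.1 at 12 h, and 92.5, 88.7 and 89.2 at 24 h. All deprived libraries were above the Gln-added ones, and the 24 h libraries above those at 12 h. The log2 fold change was 0.10 (SE 0.034, adjusted p = 0.0254) at 12 h and 0.23 (adjusted p = 0.000131) at 24 h, and the 24 h level was above that at 12 h by 0.13 (adjusted p = 0.0204). The call at 12 h was lost when any 1 of the Gln-added libraries, or replicate 1 or 3 at 12 h, was left out, with adjusted p between 0.0518 and 0.0978. The ratio of DDX5 to DDX17 was 1.77 ± 0.0160 in Gln-added cells, 2.08 ± 0.0627 at 12 h and 2.00 ± 0.00503 at 24 h, with no overlap between the Gln-added and the deprived libraries. For this ratio the exact permutation test (two-sided) gave p = 0.1 at each time, the smallest that 3 against 3 libraries allow.

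The helicases listed as unwinding G-quadruplexes moved in different directions. Of the 6 listed, DDX5 among them, 2 rose and 3 fell at 12 h, with a median log2 fold change of -0.080. At 24 h again 2 rose and 3 fell, with a median of -0.049. The share called was 83.3% at each time, beside 60.2% and 64.7% of all genes. The second that rose was DDX21 (chr10:68956135-68985068), a nucleolar helicase that acts in RNA polymerase I transcription and rRNA processing. It was at 113.2, 105.4 and 114.9 FPKM with Gln added, 141.4, 138.6 and 149.8 at 12 h, and 123.1, 134.3 and 129.3 at 24 h. The rise was 0.37 (SE 0.047, adjusted p = 6.71e-05) at 12 h and 0.21 (adjusted p = 0.0023) at 24 h. Its level was thus highest at 12 h, with the 24 h libraries between both other groups.

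DHX9 (chr1:182839347-182887982), also called RNA helicase A, resolves R-loops and RNA structures in the nucleus and fell most of these 6. Its libraries were at 66.1, 66.7 and 70.1 FPKM with Gln added, 51.8, 52.9 and 53.3 at 12 h, and 55.2, 51.7 and 53.3 at 24 h. All deprived libraries were below the lowest Gln-added one. The log2 fold change was -0.36 (SE 0.037, adjusted p = 1.34e-05) at 12 h and -0.34 (adjusted p = 1.5e-05) at 24 h, and 12 h and 24 h differed by 0.019 (adjusted p = 0.766). DHX9 went from above DHX15 and DDX3X with Gln added, as the fifth helicase in rank, to below both at 12 h and 24 h.

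DDX1 (chr2:15591178-15634346), a subunit of the tRNA ligase complex, was at 93.2, 90.2 and 96.1 FPKM with Gln added, 83.2, 78.2 and 82.1 at 12 h, and 82.7, 76.2 and 82.7 at 24 h. It was lower in all deprived libraries, with log2 fold changes of -0.20 (SE 0.044, adjusted p = 0.00245) and -0.21 (adjusted p = 0.00148). DDX11 (chr12:31073860-31104799) carries a DDX name but is a DNA helicase of the XPD family that acts in sister chromatid cohesion. It was at 3.74, 4.05 and 3.62 FPKM with Gln added, 3.22, 3.46 and 3.05 at 12 h, and 3.37, 3.39 and 3.32 at 24 h. Its log2 fold change was -0.22 (SE 0.067, adjusted p = 0.0141) at 12 h and -0.17 (adjusted p = 0.0419) at 24 h. The 12 h call was lost without Gln-added replicate 2 (adjusted p = 0.0605) and the 24 h call without any 1 of 6 libraries (Gln-added replicates 1 and 2, 12 h replicate 1 and each 24 h replicate), with adjusted p between 0.0549 and 0.154. DDX11 also has near-identical copies, and 2.67% and 1.71% of the 150-base windows of its transcripts recur in DDX12B and DDX12P, so its reads may be split between genes.

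DHX36 (chr3:154272546-154324487), which binds and unfolds G-quadruplexes in mRNA, was not called at either time. Its libraries were at 7.83, 7.10 and 7.14 FPKM with Gln added, 7.77, 6.97 and 7.95 at 12 h, and 7.55, 7.72 and 7.98 at 24 h, and the groups overlapped. The log2 fold changes were 0.038 (SE 0.062, adjusted p = 0.615) and 0.075 (adjusted p = 0.311). Among DNA helicases outside the DDX and DHX names that unwind G-quadruplexes, 1 of 5 tested rose and 3 fell at 12 h. At 24 h 3 fell and none rose, and the medians were -0.31 and -0.78. The share called was 80% at 12 h and 60% at 24 h, beside 60.2% and 64.7% of all genes. BRIP1, the Fanconi anaemia helicase FANCJ, fell by 1.04 and 1.18 on the log2 scale, and BLM, the Bloom syndrome helicase, fell by 0.70 and 0.78. PIF1 was higher at 12 h (0.27, adjusted p = 0.0145) and lower at 24 h (-0.78, adjusted p = 1.16e-05). WRN was not called, at 0.13 and 0.094, and RTEL1 was below the filter.

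The largest change of any helicase with a DDX or DHX name was in mRNA export. DDX19B (chr16:70289663-70335305, plus strand), which releases export factors from mRNA at the cytoplasmic face of the nuclear pore, was at 5.92, 5.71 and 5.55 FPKM with Gln added. It was at 9.77, 10.1 and 10.4 FPKM at 12 h and at 9.68, 9.62 and 9.50 FPKM at 24 h, so every deprived library was far above every Gln-added one. The log2 fold change was 0.81 (SE 0.045, adjusted p = 1.39e-07) at 12 h and 0.74 (adjusted p = 1.81e-07) at 24 h, ratios of 1.76 and 1.68. Its paralog DDX19A (chr16:70346861-70373383), which lies next to it on the same strand, fell by 0.18 (adjusted p = 0.00226) and 0.10 (adjusted p = 0.0423) on the log2 scale. The 24 h call of DDX19A was lost under 4 of 10 other settings and without any 1 of 6 libraries. The ratio of DDX19B to DDX19A was 0.303, 0.286 and 0.272 with Gln added, 0.573, 0.569 and 0.577 at 12 h, and 0.506, 0.521 and 0.517 at 24 h. The difference in log2 ratio was 1.00 at 12 h and 0.85 at 24 h, and at each time the groups did not overlap (exact permutation p = 0.1, the smallest possible).

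Some reads of these paralogs cannot be assigned with certainty. Of the 150-base windows in DDX19B transcripts 6.47% recur in DDX19A, and 3.50% the other way round. A readthrough transcript on the same strand covers 16.0% of the exonic bases of DDX19B and 23.9% of those of DDX19A, and genes on the opposite strand, including AARS1, cover 8.01% of DDX19B. How the counting treated such reads was not given in the sources used here. DDX39A, an export helicase of the TREX pathway, fell by 0.17 and 0.20 on the log2 scale (adjusted p = 0.0343 and 0.0174). Its close relative DDX39B had no row under that symbol in the expression table. Of the 3 export helicases tested, 1 rose and 2 fell at each time, beside 60.2% and 64.7% of all genes called at 12 h and 24 h.

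**Figure D3:**
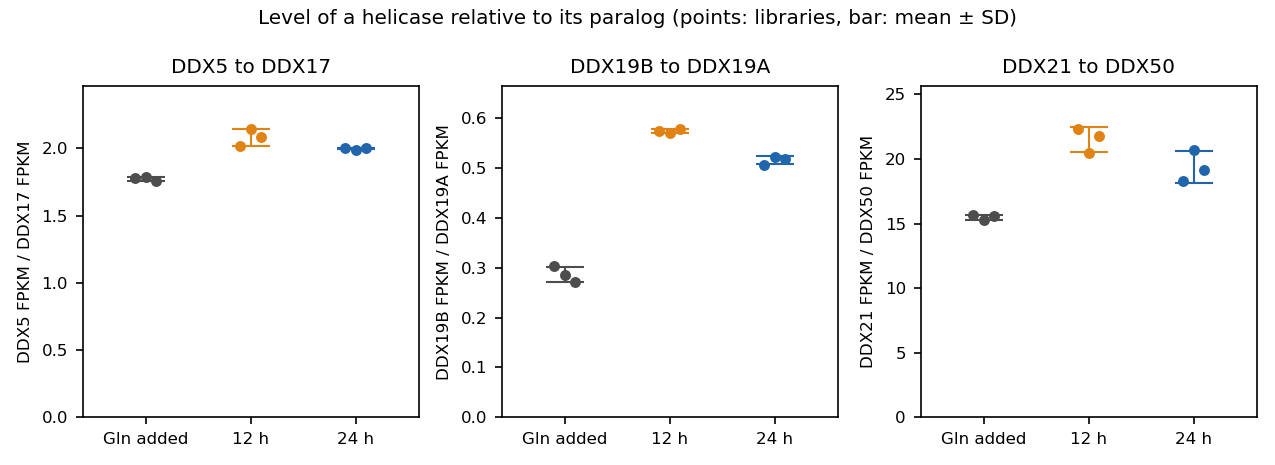
FPKM ratio of DDX5 to DDX17, DDX19B to DDX19A and DDX21 to DDX50 in each library (points), with the mean and SD of the 3 libraries (bars), for Gln added (grey), 12 h (orange) and 24 h (blue) of Gln deprivation. The DDX19B to DDX19A ratio goes from 0.287 to 0.573 at 12 h, and in all 3 panels no deprived library overlaps the Gln-added ones.

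Ribosome assembly uses the largest set of DEAD box proteins, each acting on a particular precursor of the small or the large subunit in the nucleolus. Among the 8 helicases of the large subunit, 5 rose and 2 fell at 12 h, with a median log2 fold change of 0.13. At 24 h 4 rose and 2 fell, with a median of 0.069. The shares called were 87.5% and 75%, beside 60.2% and 64.7% of all genes. DDX51 (chr12:132136594-132144319) was at 3.11, 3.27 and 3.09 FPKM with Gln added, 4.64, 4.79 and 4.39 at 12 h, and 4.64, 4.44 and 4.57 at 24 h. The groups were far apart, and DDX51 rose by 0.53 (SE 0.056, adjusted p = 1.64e-05) and 0.51 (adjusted p = 1.58e-05). DDX31 (chr9:132592997-132670401) went from 2.14, 2.25 and 2.09 FPKM to 2.81, 3.29 and 3.15 at 12 h and to 3.37, 2.69 and 2.82 at 24 h. Its deprived libraries were more spread, but all lay above the Gln-added ones, and the changes were 0.49 (SE 0.094, adjusted p = 0.00101) and 0.43 (adjusted p = 0.00205). DDX27 and DDX56 rose at both times by 0.10 to 0.23, and DDX54 rose at 12 h (0.17, adjusted p = 0.00746) but was at 0.042 at 24 h, not past the threshold. DDX55 was not called.

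The 2 large-subunit helicases that fell were DDX24 and DDX18. DDX24 (chr14:94048287-94081202, minus strand) had the deepest fall of the family, from 20.8, 21.3 and 20.9 FPKM with Gln added to 14.0, 14.0 and 13.2 at 12 h and 15.2, 15.1 and 15.7 at 24 h. The 3 groups were separate from each other. The log2 fold change was -0.61 (SE 0.039, adjusted p = 3.99e-07) at 12 h and -0.45 (adjusted p = 2.66e-06) at 24 h. DDX18 (chr2:117814691-117832377) was at 54.0, 53.4 and 56.6 FPKM with Gln added, 47.2, 46.2 and 48.8 at 12 h, and 43.4, 42.0 and 44.4 at 24 h. It was lower in each later group, by -0.20 (SE 0.038, adjusted p = 0.000921) at 12 h and -0.34 (adjusted p = 2.08e-05) at 24 h.

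Among the 5 helicases of the small subunit, 2 rose and 1 fell at 12 h, and 3 rose and 1 fell at 24 h. The shares called were 60% at 12 h and 80% at 24 h, beside 60.2% and 64.7% of all genes. DHX37, which acts on the U3 snoRNA, rose by 0.24 (adjusted p = 0.000426) and 0.14 (adjusted p = 0.0108). DDX10 was called at 12 h only (0.25, adjusted p = 0.00154), and DDX49 and DDX52 at 24 h only (0.25 and 0.20, adjusted p = 0.00486 and 0.0109). The member that fell was DDX47 (chr12:12813316-12829981), which was at 23.2, 23.1 and 23.3 FPKM with Gln added, 19.8, 19.7 and 18.8 at 12 h, and 19.8, 19.1 and 19.5 at 24 h. Its deprived libraries agreed closely and were all below the Gln-added ones, with -0.25 (SE 0.037) at each time and adjusted p of 0.000157 and 0.000128. APOLD1 covers 36.5% of its exonic bases on the same strand but was itself at 0.037 FPKM or less.

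Of the 3 nucleolar helicases of rDNA transcription and rRNA modification, DDX21 and DHX33 rose at 12 h. In this list 66.7% were called at 12 h and 33.3% at 24 h, beside 60.2% and 64.7% of all genes. DHX33, which promotes RNA polymerase I transcription, changed by 0.16 (adjusted p = 0.007) at 12 h and by -0.0070 (adjusted p = 0.89) at 24 h. DDX50, the paralog of DDX21, was at 7.17 ± 0.247 FPKM in Gln-added cells, 6.66 ± 0.283 at 12 h and 6.66 ± 0.158 at 24 h, and was not called. The ratio of DDX21 to DDX50 was 15.5 ± 0.192 in Gln-added cells, 21.5 ± 0.948 at 12 h and 19.4 ± 1.25 at 24 h, without overlap between Gln-added and deprived libraries (exact permutation p = 0.1 at each time, the smallest possible). In mitochondria, DHX30, which serves the mitochondrial ribosome, rose by 0.15 and 0.12 (adjusted p = 0.00581 and 0.0142), while DDX28 was at 0.085 and 0.25 with an adjusted p of 0.538 and 0.0721.

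The spliceosome uses a helicase at nearly every rearrangement. Of the 9 tested, 4 rose and 3 fell at 12 h, with a median log2 fold change of 0.069. At 24 h 3 rose and 2 fell, with a median of 0.011. The shares called were 77.8% and 55.6%, beside 60.2% and 64.7% of all genes. DDX46, which acts when the U2 particle binds the branch site, rose at 12 h (0.16, adjusted p = 0.00799) and was at 0.011 at 24 h. DDX23, needed for entry of the tri-snRNP, fell by 0.14 and 0.20 (adjusted p = 0.013 and 0.00129). The DEAH box helicases of the catalytic steps rose at both times. These were DHX16, which activates the complex (0.30 and 0.36, adjusted p = 0.000162 and 3.72e-05), DHX38, which remodels it between the steps of splicing (0.18 and 0.19), and DHX8, which releases the spliced mRNA (0.13 and 0.18).

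DHX15, which takes the spliceosome apart, was at 60.7 ± 2.29, 63.6 ± 1.33 and 63.4 ± 0.989 FPKM in the 3 groups and was not called. DDX41 and DDX42 fell at 12 h by 0.17 and 0.10 (adjusted p = 0.0398 and 0.0215) and were at -0.11 and -0.037 at 24 h, not past the threshold. DHX35 was called at 24 h only, at -0.12 (adjusted p = 0.0425). TXNL4B, a gene on the opposite strand that covers part of the 11.1% of DHX38 exonic bases shared with other genes, rose by 0.97 and 0.82, and whether its reads entered the DHX38 value was not tested. The same holds for ETV4, which rose by 0.91 and 1.00 and overlaps 0.632% of DHX8.

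Among the 6 helicases of translation, storage and decay of mRNA, 4 rose and 1 fell at each time, with a median log2 fold change of 0.16 at 12 h and 0.22 at 24 h. DHX34 (chr19:47349315-47382704), a factor of nonsense-mediated decay, was at 5.46, 5.67 and 5.85 FPKM with Gln added, 7.38, 7.33 and 7.39 at 12 h, and 7.34, 7.28 and 6.64 at 24 h. All its deprived libraries were above the Gln-added ones, with 0.37 (SE 0.053, adjusted p = 0.000129) and 0.32 (adjusted p = 0.000329). DDX3X, which helps ribosomes through structured mRNA leaders, rose from 57.6 ± 1.14 to 65.7 ± 2.27 and 66.4 ± 1.26 FPKM, or by 0.19 and 0.21 (adjusted p = 0.000995 and 0.000481). Its Y-linked paralog DDX3Y rose by 0.20 and 0.27 (adjusted p = 0.0334 and 0.00582), and the log2 ratio of DDX3X to DDX3Y differed from that with Gln added by -0.0075 and -0.069 (exact permutation p = 0.9 and 0.4). No 150-base window is shared between the transcripts of these paralogs. DDX6, a repressor of translation in P-bodies, rose by 0.14 and 0.23 (adjusted p = 0.016 and 0.000777).

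DHX29 (chr5:55256055-55307694), which binds the small ribosomal subunit and aids scanning along structured leaders, was the translation helicase that fell. It was at 7.86, 8.69 and 8.63 FPKM with Gln added, 6.88, 6.70 and 6.53 at 12 h, and 7.18, 6.66 and 7.13 at 24 h. The deprived libraries were all below the Gln-added ones, with -0.32 (SE 0.055, adjusted p = 0.000519) and -0.26 (adjusted p = 0.00171). The classic DEAD box initiation factors carry no DDX name. Of 14 such and other related helicases listed, 10 had a row in the expression table and 9 were tested. EIF4A1 was not among these 9. At 12 h 2 rose and 4 fell. At 24 h 1 rose and 5 fell. The share called was 66.7% at each time, beside 60.2% and 64.7% of all genes. EIF4A2 was at -0.075 and -0.060 and was not called, while EIF4A3, of the exon junction complex, rose by 0.14 and 0.13 (adjusted p = 0.019 and 0.02). IFIH1, the RNA sensor MDA5, fell by 0.35 and 0.31 on the log2 scale and DQX1 fell by 0.45 and 0.36.

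The remaining helicases have other or less studied roles. DHX32 (chr10:125836337-125896436, minus strand) was at 6.48, 6.42 and 6.03 FPKM with Gln added, 7.36, 8.71 and 8.35 at 12 h, and 8.87, 8.01 and 8.64 at 24 h. It was higher in all deprived libraries, by 0.36 (SE 0.068, adjusted p = 0.000991) and 0.42 (adjusted p = 0.00027), while BCCIP, which covers 10.4% of its exonic bases on the opposite strand, fell by 0.32 and 0.43 on the log2 scale. DHX40 rose by 0.20 and 0.30 (adjusted p = 0.00689 and 0.000438), and 7.05% of the 150-base windows of its transcripts recur in the pseudogene DHX40P1. DDX59 (chr1:200623896-200669907) was at 3.92, 4.16 and 4.12 FPKM with Gln added, 3.64, 3.93 and 3.99 at 12 h, and 3.21, 3.13 and 3.69 at 24 h. Only its 24 h libraries stood apart from the Gln-added ones, and it was called at 24 h (-0.28, SE 0.073, adjusted p = 0.00628) and not at 12 h (-0.076, adjusted p = 0.39). DHX57 fell by 0.17 and 0.22 (adjusted p = 0.0361 and 0.0105), and DDX20, which works with the SMN complex, was at 0.050 and -0.046 and was not called.

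G-patch proteins switch on DEAH box helicases such as DHX15 and DHX16. Of the 15 listed, all of which were tested, 9 rose and 2 fell at 12 h, with a median log2 fold change of 0.27. At 24 h 7 rose and 4 fell, with a median of 0.21. The share called was 73.3% at each time, beside 60.2% and 64.7% of all genes. Those that rose included GPATCH3 (0.47 and 0.50), RBM5, a splicing regulator (0.40 and 0.50), GPATCH8 (0.37 and 0.43) and TFIP11, which works with DHX15 in spliceosome disassembly (0.35 and 0.40). RBM10, a paralog of RBM5, was higher at 12 h (0.18, adjusted p = 0.0068) and lower at 24 h (-0.17, adjusted p = 0.00858). GPATCH11 fell by 0.27 and 0.18, and CMTR1, the cap methyltransferase that binds DHX15, fell by 0.099 and 0.21.

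The helicases were also compared directly between 12 h and 24 h of Gln deprivation. Of the 47 tested, 8 differed (17.0%), 3 higher and 5 lower at 24 h, beside 20.1% of all genes, 9.57% higher and 10.5% lower. The median log2 difference was 0.016, and the median absolute difference was 0.067 against 0.11 over all genes. DDX58, the viral RNA sensor RIG-I, differed most. It was at 1.90, 2.13 and 2.09 FPKM with Gln added, 1.66, 1.90 and 1.82 at 12 h, and 2.17, 2.27 and 2.34 at 24 h, on 228 to 379 fragments per library. The 24 h libraries were above all others, and 24 h exceeded 12 h by 0.32 (SE 0.082, adjusted p = 0.0196), although DDX58 passed the threshold at neither time against Gln added (adjusted p = 0.0833 and 0.145). A same-strand gene of GENCODE v44 covers 43.2% of its exonic bases.

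Most of these 8 were at their highest or lowest at 12 h. DDX10 was at 9.21, 9.44 and 8.86 FPKM with Gln added, 10.7, 10.7 and 11.3 at 12 h, and 10.0, 9.21 and 9.18 at 24 h, a difference of -0.20 (SE 0.051, adjusted p = 0.0174). DHX33 was at 20.7, 21.8 and 20.3 FPKM, then 23.1, 24.1 and 22.8, then 20.5, 20.8 and 21.2, a difference of -0.16 (SE 0.041, adjusted p = 0.0183). For DDX10, DHX33 and DDX46 the 24 h levels overlapped those with Gln added. DDX21 (-0.15, adjusted p = 0.0443) and DDX46 (-0.15, adjusted p = 0.034) were likewise below their 12 h level, and DDX18 (-0.13, adjusted p = 0.0343) fell further. DDX17 and DDX24 were higher at 24 h than at 12 h, by 0.13 and 0.16. None of the 8 was called under all alternatives, and 3 to 5 were called when only the 12 h and 24 h libraries were fitted, without the trend in the variance, without the filter, with FPKM rescaled, or without certain libraries.

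**Figure D4:**
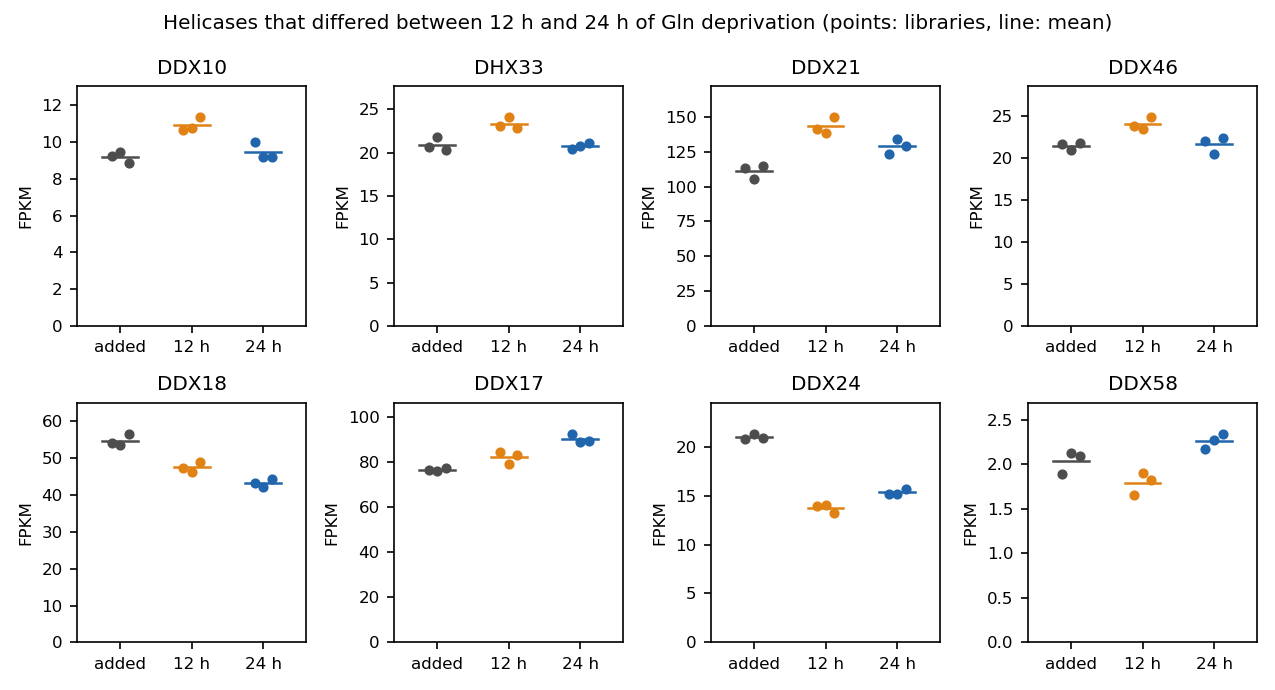
FPKM in each library (points) with the group mean (lines) for the 8 helicases with an adjusted p under 0.05 between 12 h and 24 h, each panel on its own axis from 0. DDX10, DHX33, DDX21 and DDX46 are highest at 12 h, DDX18 is lower and DDX17 higher in each later group, and DDX58 is highest at 24 h.

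Several helicase genes start next to a gene on the other strand. In GENCODE v44, 12 had a protein-coding neighbour in the table whose start lay within 1000 bases in head-to-head orientation, and for 10 both genes were tested. At 12 h both genes were called in 5 pairs, 3 in the same direction, and at 24 h in 4 pairs, 3 in the same direction. This is to be read beside the 60.2% and 64.7% of all genes called at these times. Whether such pairs were called together, or in the same direction, more often than other genes was not tested. The pairs were looked up after the changes of the helicases were known. The GENCODE gene start of DDX19B overlaps by 44 bases with that of AARS1, the alanyl-tRNA synthetase. AARS1 rose from 74.6 to 114 and 116 FPKM, by 0.61 (adjusted p = 1.47e-07) and 0.63 (adjusted p = 7.3e-08) on the log2 scale. At the other end of the range, IFI27L1 starts 99 bases from DDX24 and fell by 0.53 at each time (adjusted p = 0.00034 and 0.000276). DHX38 and TXNL4B, whose starts overlap by 818 bases, both rose.

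Other pairs did not move together. DDX54 rose at 12 h while RITA1, which starts 47 bases away, fell by 0.34 and 0.43 on the log2 scale. DDX49 was higher at 24 h while COPE, a coatomer subunit 318 bases away, fell by 0.25 and 0.23. DHX29 fell while MTREX, the helicase of the nuclear exosome, starting 295 bases away, rose at 12 h (0.12, adjusted p = 0.0232). NOC4L, next to DDX51, and GTF3C4, next to DDX31, were not called at either time (log2 fold changes of 0.066 to 0.11).

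Promoter windows from 250 bases before to 50 bases after the transcription start were taken from RefSeq (GRCh38.p14) for 48 of the 53 helicases. DDX18, DDX49, DDX52, DHX33 and DHX58 had no window. The E-box CACGTG, which reads the same on both strands and is bound by MYC and MAX, TFEB and USF factors, was in 8 of the 48 (16.7%), against 7.43% of all 27305 windows and 10.3% of the 9543 windows of tested genes. These 8 are shown with 10 bases on each side as far as the window goes, 5′ to 3′ on the strand of the gene, with the E-box in capitals, because most of them rose. Positions count from the RefSeq transcription start, which can differ from the GENCODE gene start used for the neighbours above. For DDX19B the window spans chr16:70294527-70294826, while its GENCODE gene start is 70289663. For DHX32, on the minus strand, the window spans chr10:125881243-125881542, while its GENCODE gene start is 125896436. A window thus need not hold the start that lies next to a neighbour.
DDX5, chr17:64506653-64506678, minus strand, E-box at -30 to -25: gtggtacagcCACGTGacaacgccag
DDX31, chr9:132669990-132670015, minus strand, E-box at -22 to -17: tcgcgcgtccCACGTGgggtcccggg
DDX54, chr12:113185524-113185549, minus strand, E-box at -61 to -56: cagcggaggtCACGTGgtcaccgcac
DHX32, chr10:125881392-125881417, minus strand, E-box at -115 to -110: attaggtgacCACGTGattgattagc
DHX34, chr19:47349065-47349080, plus strand, E-box at -250 to -245: CACGTGgctatgcttg
DHX35, chr20:38962150-38962175, plus strand, E-box at -184 to -179: tgagcagggtCACGTGggctcggggg
DHX35, chr20:38962202-38962227, plus strand, E-box at -132 to -127: ggaagtgggtCACGTGgctcagacgg
DHX37, chr12:124989082-124989100, minus strand, E-box at 42 to 47: tctgggaaccCACGTGggc
DHX40, chr17:59565450-59565475, plus strand, E-box at -150 to -145: aggcgaagcgCACGTGgcagttggcg

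Of the 8 helicases with this E-box, 7 rose and none fell at 12 h, and 6 rose and 1, DHX35, fell at 24 h. The median log2 fold changes were 0.28 and 0.31. Of the 35 tested helicases with a window and no E-box, 15 rose and 12 fell at 12 h and 13 rose and 11 fell at 24 h, with medians of 0.050 and 0.044. Among the 976 other genes with the E-box, 32.1% rose and 30.6% fell at 12 h. At 24 h 35.5% rose and 33.6% fell. Whether the rise of helicases goes with the E-box was not tested, and the comparison rests on 8 genes. The match is a description of the window and not of a bound site.

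The letters TGATGNAA, the core of the amino acid response element bound by ATF4, were in none of the 48 windows on either strand, against 3.67% of all windows and 1.63% of those of tested genes. A G-quadruplex pattern, 4 runs of at least 3 G with 1 to 7 bases between them on either strand, was in 11 (22.9%), against 24.1% of all windows and 33.4% of those of tested genes. Of these 11, 7 rose and 2 fell at 12 h and 5 rose and 3 fell at 24 h. Of the 32 tested helicases with a window and no such pattern, 15 rose and 10 fell, then 14 rose and 9 fell. For the 3181 other genes with the pattern, 30.5% rose and 31.3% fell at 12 h, and 35.6% rose and 31.5% fell at 24 h. Whether the changes of helicases go with the pattern was not tested. The window of DDX5 held no such pattern, whereas that of DHX9 did. The stretches of DHX9, the most abundant helicase that fell after DDX1, and of DHX35, whose pattern overlaps its upstream E-box, are shown in capitals over the whole pattern, and runs of C stand for G on the other strand.
DHX9, chr1:182839185-182839208, plus strand, -162 to -139: CCCGCCCGGCTCAGCCCATCTCCC
DHX35, chr20:38962156-38962180, plus strand, -188 to -164: GGGTCACGTGGGCTCGGGGGCGGGG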

How the data were processed

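According to the methods, the authors aligned paired-end reads of HepG2 libraries to GRCh38 with STAR and tested genes with DESeq2, and the submitters' processing notes name HTSeq and R 3.2.0. The deposited values are FPKM per gene and library, scaled by the authors to gene length and mapped fragments. The annotation is not given in the sources used here. The labels name another library kit than the methods, so whether counting used strand is open.

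FPKM are not counts, so limma 3.58.1 in R 4.3.3 (lmFit, eBayes with a trend) was run on log2(FPKM + 0.1). Genes had to average 0.5 FPKM or more over all 9 libraries, all groups were fitted together, and p-values were adjusted after Benjamini and Hochberg over 11880 genes, with a threshold of 0.05. Fragment numbers were recovered from the steps of the FPKM values and were whole, within 0.0002, for 100% of genes. Ratios of paralogs were compared by an exact permutation test (two-sided). Fits and recovery were tested on simulated data. Positions come from GENCODE v44 (all 53 genes matched, DDX58 as RIGI) and promoters from RefSeq.

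The helicases, the lists of roles and the tests were chosen with earlier results of these data known, and head-to-head neighbours after the changes were seen. Values per library are given for DDX5 and DDX17, the G-quadruplex helicases, the 5 largest rises and falls at each time, the 5 largest changes between times and the 5 highest levels. Alternatives were another pseudocount (1 or 0.01), no filter on low values or a minimum mean of 1 FPKM, rescaled FPKM, median-ratio scaling, a fit of the compared groups only, a replicate block, no trend, voom on recovered fragments, and leaving out each library. The planned grouping by the letters of motif II was not run.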

Additional observations from a re-analysis of the deposited data

Results flagged for a closer look

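A closer look is merited by the 8 helicases whose change differed between 12 h and 24 h of Gln deprivation. They had an adjusted p under 0.05 in the limma contrast of 24 h against 12 h. They made up 17.0% of the 47 helicases tested, beside 20.1% of all genes, so their share was not above that of all genes. DDX58, which encodes the RNA sensor RIG-I, was 0.32 higher on the log2 scale at 24 h than at 12 h, and all 3 of its 24 h libraries were above all of its 12 h libraries. DDX24 (0.16) and DDX17 (0.13) were also higher at 24 h, although DDX24 stayed below its level with Gln added. DDX10 (-0.20), DHX33 (-0.16), DDX21 (-0.15), DDX46 (-0.15) and DDX18 (-0.13) were lower at 24 h. Of these 5, DDX10, DHX33, DDX21 and DDX46 had risen at 12 h, and DDX18 had fallen. Each of the 8 calls was lost when at least 1 library was left out, namely 12 h replicate 2 for DDX17 and DHX33, 24 h replicate 3 for DDX24, and 3 to 7 libraries for the other 5.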

How the results depend on the processing

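The number of helicases called stayed within 1.5 times under every alternative at 12 h (36, range 28 to 37) and 24 h (34, range 29 to 35), and no called value of a named helicase changed direction. Of 1140 values of named helicases under alternatives, 1090 kept their side of the threshold, 47 lost it and 3 gained it. Of the 8 calls between 12 h and 24 h, 5 (3 higher, 2 lower) were left without the filter or with FPKM rescaled to the same total, 3 with only the groups compared and 4 without the trend. Between 4 and 8 were left when 1 library was left out, 4 without any 1 of the 12 h libraries or 24 h replicate 2 or 3, and 5 without Gln-added replicate 1. Without 24 h replicate 3, DDX59 was gained. The cause was not tested.

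Replicate numbers showed no clear pairing of the libraries. The correlations of their deviations ran from -0.136 to 0.283 between same-numbered libraries and from -0.467 to 0.296 between differently numbered ones. With 3 libraries per group this check cannot exclude a pairing. With the replicate number as a block, 36, 34 and 8 helicases were called at 12 h, at 24 h and between the times, with DDX19A lost and DDX28 gained at 24 h. On the recovered fragments, voom called 36, 31 and 9, and 7312, 7857 and 2640 of all genes.

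Medians of the lists moved mostly with FPKM rescaled to the same total, which shifted the median of all genes at 24 h from 0.013 to 0.059. With it the medians were 0.10 for the spliceosome at 12 h, and at 24 h 0.059 for the spliceosome, -0.0026 for G-quadruplex helicases, 0.12 for the large subunit, 0.040 for the nucleolar list, -0.053 for mRNA export, 0.27 for translation and decay and -0.074 for related helicases. G-patch partners were at 0.30 and 0.25 with it and at 0.19 and 0.18 with a pseudocount of 1, and at 0.0093 between the times with median-ratio scaling. DNA helicases for G-quadruplexes were at -0.57 at 24 h with a pseudocount of 1 and -0.53 without the filter, and mRNA export without the filter at -0.078 and -0.033.

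Leaving out 1 library gave, at 12 h, medians of -0.099 to -0.038 for G-quadruplex helicases, -0.19 to -0.11 for mRNA export, 0.12 to 0.18 for translation and decay, -0.12 to -0.069 for related helicases and 0.22 to 0.29 for G-patch partners. At 24 h it gave -0.013 to 0.049 for the spliceosome and 0.21 to 0.30 for G-patch partners. Between the times it gave -0.064 to 0.016 for mRNA export, -0.056 to 0.039 for the less studied helicases and -0.030 to 0.033 for related helicases. Helicases with few fragments, such as DDX58 and DDX28, had among the largest standard errors (0.082 and 0.11 at 12 h).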

Other observations

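Replicates differed in how closely they agreed. With Gln added, the coefficient of variation over the 3 libraries was 0.283% for DDX5, 0.491% for DDX47 and 0.609% for DHX38, and 8.82% for DDX28, the highest among the tested helicases. DDX28 encodes a DEAD box protein of the mitochondrial ribosome and had 383 to 588 fragments per library. The helicases held 0.527% to 0.539% of all fragments on genes with Gln added and 0.566% to 0.580% in the deprived libraries.

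By level the order of the helicases shifted between groups. DDX17 was the fourth with Gln added and the third at 12 h and 24 h, and DDX1 went from the third to the fourth. DDX19B was the 39th of 53 with Gln added, the 31st at 12 h and the 30th at 24 h. DDX24 was the 20th with Gln added, the 27th at 12 h and the 25th at 24 h.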
